A study of Mus musculus with 12 samples.

Results

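The Zscan4 genes described here are Zscan4a, Zscan4b, Zscan4c, Zscan4d and Zscan4e, the 5 genes of this family that the array annotation names on probe sets with a single gene symbol, out of 22180 genes measured in that way. Each of the 5 had 1 such probe set, so no choice between probe sets was needed, and all 5 were tested with no filter on signal. RNA was measured on 12 Affymetrix whole-transcript arrays in 4 groups of 3 samples of mouse embryonic stem (ES) cells, the cultured pluripotent cells of the early embryo. All groups carried MERVL::tdTomato, a red fluorescent reporter driven by the retroviral element MERVL that is active in 2-cell embryos. Cells with Dppa2 and Dppa4 knocked out were given SUMO-deficient Dppa2 and Dppa4 fused to GFP (KO+Mut) or the wild-type proteins fused to GFP (KO+WT). These were set against knockout cells without add-back (KO) and against the reporter cells with both genes intact (parental). Add-back cells were lipofected with plasmids and sorted for GFP, steps that the labels do not give for KO or parental cells, and the labels state neither the plasmids' promoter nor how many clones the KO line represents. Signals are log2 values on the authors' normalized scale. Median array signals lay between 3.73 and 3.88 and lower quartiles between 2.36 and 2.47, no pair of arrays was identical, and all 10 ES cell markers examined, among them Pou5f1 and Nanog, lay above the median of every array. Of 9 fibroblast markers 4 lay above it in each group. The samples of a group are called biological replicates without further detail, so p-values cover only the spread among these samples, and their number limits the precision.

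Zscan4 genes encode nuclear proteins with a SCAN domain, used in protein interactions, and zinc fingers that bind DNA. In the mouse they are transcribed in a burst in late 2-cell embryos and, in ES cell cultures, in a small and changing fraction of cells, where they are known for their part in telomere lengthening and genome stability. Dppa2 and Dppa4 are DNA-binding proteins that act upstream of this program in ES cells, in part through the transcription factor Dux, and SUMO is a small modifier protein, often linked to proteins that silence transcription. Dux had no single-symbol probe set and was not analysed here.

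The family lies in a cluster on chromosome 7. In the RefSeq gene table of assembly GRCm38.p6 the 9 genes of the cluster stand in the order Zscan4a, Zscan4b, Zscan4c, Zscan4-ps1, Zscan4d, Zscan4e, Zscan4f, Zscan4-ps2 and Zscan4-ps3. Of the 5 genes measured, Zscan4b, Zscan4c and Zscan4d are annotated as protein-coding, Zscan4e as a pseudogene and Zscan4a as a transcribed pseudogene. Their Entrez identifiers all matched that table. Because family members are near-identical, a probe set named for 1 of them may also read others, and the 5 values are not independent.

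Promoter windows from RefSeq (GRCm38.p6, 300 bases that end 50 bases after the annotated start, written 5′ to 3′ on the gene's strand) matched 3 of the 5 genes by symbol. The windows of these 3 are shown. They lie at chr7:10905001-10905300 on the minus strand for Zscan4b, chr7:11005495-11005794 on the plus strand for Zscan4c and chr7:11166099-11166398 on the minus strand for Zscan4d. Capitals mark the longest stretch that all 3 windows share, of 55 bases.
Zscan4b: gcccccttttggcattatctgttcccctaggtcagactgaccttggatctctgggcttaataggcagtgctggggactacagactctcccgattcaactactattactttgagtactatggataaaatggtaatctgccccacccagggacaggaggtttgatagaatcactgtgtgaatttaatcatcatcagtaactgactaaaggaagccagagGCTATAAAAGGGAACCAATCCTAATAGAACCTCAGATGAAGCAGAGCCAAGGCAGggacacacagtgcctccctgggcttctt
Zscan4c: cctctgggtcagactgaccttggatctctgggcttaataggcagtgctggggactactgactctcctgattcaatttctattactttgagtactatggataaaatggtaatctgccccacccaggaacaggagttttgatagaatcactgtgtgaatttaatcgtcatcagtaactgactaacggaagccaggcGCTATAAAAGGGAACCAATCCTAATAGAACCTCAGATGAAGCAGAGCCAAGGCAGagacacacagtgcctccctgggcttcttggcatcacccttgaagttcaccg
Zscan4d: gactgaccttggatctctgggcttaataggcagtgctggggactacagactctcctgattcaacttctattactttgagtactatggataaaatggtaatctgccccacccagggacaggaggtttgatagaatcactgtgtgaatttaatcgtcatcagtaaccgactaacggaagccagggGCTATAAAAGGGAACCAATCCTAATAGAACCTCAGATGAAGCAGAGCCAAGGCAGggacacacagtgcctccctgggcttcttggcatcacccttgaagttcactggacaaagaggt
Without gaps, the window of Zscan4b matched that of Zscan4c at 95.3% of 277 overlapping bases and that of Zscan4d at 97.7% of 266, and the windows of Zscan4c and Zscan4d matched at 97.2% of 289. The 55-base stretch occurred in 4 of 32544 distinct windows of this length, those of these 3 genes and of Zscan4f. It contains the letters TATAAA, which began at offset -31 from the annotated start in Zscan4b, -54 in Zscan4c and -65 in Zscan4d. TATAAA was found, on either strand, in 13.6% of all windows. The letters TGCACAC, a motif bound by Zscan4 protein, occurred in 4.42% of windows on either strand and not in these 3. CG dinucleotides numbered 1 in Zscan4b, 4 in Zscan4c and 3 in Zscan4d, against a median of 7 over all windows, of which 37.7% had 4 or fewer.

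KO cells were set against parental cells to ask which transcripts need Dppa2 and Dppa4. Zscan4e fell in KO cells, by 4.41 on the log2 scale. The other 4 genes differed by smaller amounts that did not pass the threshold in the main fit, which ignored the replicate numbers. With the replicate number as a block Zscan4b and Zscan4c passed too. On the KO arrays Zscan4e signal was 2.40, 1.87 and 1.90, against 5.59, 7.06 and 6.74 on the parental arrays. All KO values lay below all parental values, at percentiles 15.2 to 24.8 of the probe sets of their arrays, against 72.5 to 85.7 in parental cells. The KO values lay at or below the arrays' lower quartile and were not shown to be above background, so no linear fold is given. The difference was -4.41 (log2, SE 0.45, n = 3 arrays per group, limma with Benjamini-Hochberg adjustment over 22180 genes, adjusted p = 0.000747), and it passed when any of the 6 arrays was left out. RNA was measured over many cells at once, so a smaller fraction of Zscan4-expressing cells and less Zscan4 RNA per expressing cell cannot be told apart.

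Zscan4b signal was 2.40, 2.36 and 2.23 in KO cells and 4.52, 5.98 and 4.96 in parental cells. The groups did not overlap, and the difference was -2.82 (SE 0.56, adjusted p = 0.0741). Zscan4c, the main form in mouse ES cells, had 3.97, 4.53 and 4.57 in KO cells and 5.60, 6.48 and 6.43 in parental cells. Again the groups were apart, with a difference of -1.81 (SE 0.47, adjusted p = 0.233). Same-numbered arrays deviated together from their group means in this comparison, and once the replicate number was a block Zscan4b and Zscan4c passed as well (adjusted p = 0.0297 and 0.0161).

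Zscan4d, the main form in 2-cell embryos, had 3.54, 2.97 and 2.92 in KO cells and 3.20, 4.85 and 4.83 in parental cells. Replicate 1 of the parental cells lay inside the KO range, and the difference was -1.15 (SE 0.67, adjusted p = 0.848). Zscan4a read 4.60, 4.60 and 4.55 in KO cells and 4.37, 5.35 and 4.56 in parental cells. These values overlapped fully, with a difference of -0.17 (SE 0.61, 95% interval -1.50 to 1.15) that turned to 0.12 without parental replicate 2. In all, 1 of 5 Zscan4 genes was called lower, against 0.203% of all genes, and with the replicate block 3 of 5, against 0.437%. Groups that did not overlap, with KO below parental, were seen for 3 of 5, against 6.83% of all genes. The family's median difference was -1.81, against 0.00 over all genes.

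**Figure D1:**
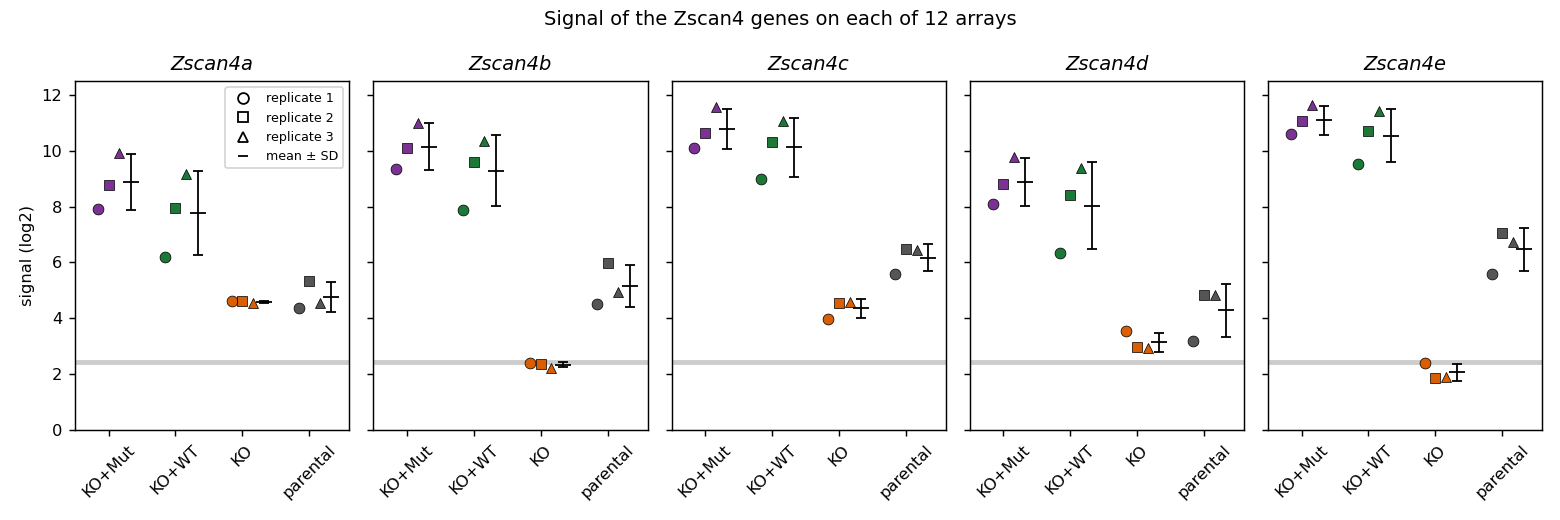
Signal (log2, vertical axis) of the 5 Zscan4 genes on each array, by group from left to right KO+Mut, KO+WT, KO and parental; symbols are replicate numbers, black marks the mean ± SD of 3 arrays and the grey band the range of the arrays' lower quartiles, 2.36 to 2.47. Within each gene all add-back values lie above all KO and parental values, and KO values of Zscan4b and Zscan4e lie in or below the band. The share of all genes with add-back values so separated was not computed.

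The targeted genes were read on the same arrays. Dppa2 averaged 8.48 ± 0.31 in KO cells and 9.77 ± 0.41 in parental cells, and Dppa4 averaged 7.62 ± 0.30 in KO cells, against 8.46 ± 0.19 in parental cells (log2, SD, n = 3). The Dppa2 difference of -1.29 passed (SE 0.21, limma adjusted p = 0.0259, kept in 1 of 6 fits with an array left out, with adjusted p up to 0.139 without parental replicate 3), and that of Dppa4, -0.84, did not (SE 0.18, adjusted p = 0.102). The labels do not say whether these probes lie in the deleted parts, and a probe outside them checks nothing. Markers of endoderm, a lineage that ES cultures can form, had a lower mean signal on KO than on parental arrays. On KO+Mut and KO+WT arrays this mean stayed within the range of the KO arrays. The mean signal of 10 such markers ranged over 5.84 to 6.24 on KO and 6.41 to 7.07 on parental arrays, and over 5.86 to 6.03 on KO+Mut and 6.02 to 6.15 on KO+WT arrays. All 10 lay above the array median in every group. In KO against parental cells 0 of 10 passed in limma, where 0.203% of all genes were called lower and 0.0361% higher. Of the 10, 8 had an unadjusted p under 0.05, where 1539 of 22180 genes did. With the replicate block 2 of 10 were lower in that comparison, against 0.437% of all genes. Their part in the Zscan4 values was not tested.

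All 5 Zscan4 genes were higher in KO cells given wild-type Dppa2 and Dppa4 than in KO cells without add-back. Lipofection and sorting are stated for add-back cells alone, so add-back and handling cannot be told apart in either comparison with KO. Zscan4e reached 9.53, 10.69 and 11.42 in KO+WT cells, against the 1.87 to 2.40 of KO cells. The groups were far apart, with a difference of 8.49 (SE 0.45, limma adjusted p = 1.17e-06). Zscan4b rose to 7.88, 9.60 and 10.36, by 6.95 over KO (SE 0.56, adjusted p = 2.62e-05). Zscan4c had 8.98, 10.31 and 11.08 in KO+WT cells, a rise of 5.77 (SE 0.47, adjusted p = 2.83e-05).

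Zscan4d had 6.33, 8.41 and 9.37 in KO+WT cells and rose by 4.90 (SE 0.67, adjusted p = 0.00343). For these 4 genes the call was kept whichever of the 6 arrays was left out. Zscan4a had 6.20, 7.95 and 9.18, a rise of 3.19 (SE 0.61, adjusted p = 0.0323). Its groups did not overlap either, but the call was lost without KO replicate 1, 2 or 3 (adjusted p = 0.0873, 0.101 and 0.106), without KO+WT replicate 2 or 3 (0.106 and 0.0757) and when only these 6 arrays were fitted (0.0809). All 5 genes were thus called higher, against 0.73% of all genes, with a median rise of 5.77 against 0.00 over all genes. KO values of Zscan4b and Zscan4e were close to the arrays' lower quartile, where log2 differences can understate a change.

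With the SUMO-deficient proteins the 5 genes also rose over KO cells. Zscan4e had 10.60, 11.06 and 11.63 in KO+Mut cells, on percentiles 99.3 to 99.8 of the probe sets, a rise of 9.04 over KO (SE 0.45, limma adjusted p = 5.39e-07). Zscan4b had 9.34, 10.10 and 11.00 and rose by 7.81 (SE 0.56, adjusted p = 6.43e-06). Zscan4c stood at 10.12, 10.65 and 11.56, up by 6.42 (SE 0.47, adjusted p = 7.93e-06).

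Zscan4d had 8.08, 8.80 and 9.79 in KO+Mut cells, a rise of 5.75 (SE 0.67, adjusted p = 0.000646). Zscan4a had 7.92, 8.79 and 9.91 and rose by 4.29 (SE 0.61, adjusted p = 0.00311). No KO+Mut value overlapped a KO value, but the share of all genes so separated was not computed for either add-back. Each of these calls was kept in all 6 fits with an array left out. The count of 5 of 5 stood against 1.12% of all genes called higher, and the median rise was 6.42. Both add-back comparisons share the KO arrays. Against KO cells Dppa2 itself rose by 2.72 with the mutant and 2.60 with the wild-type proteins, and Dppa4 by 2.92 and 2.77, in the same order.

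**Figure D2:**
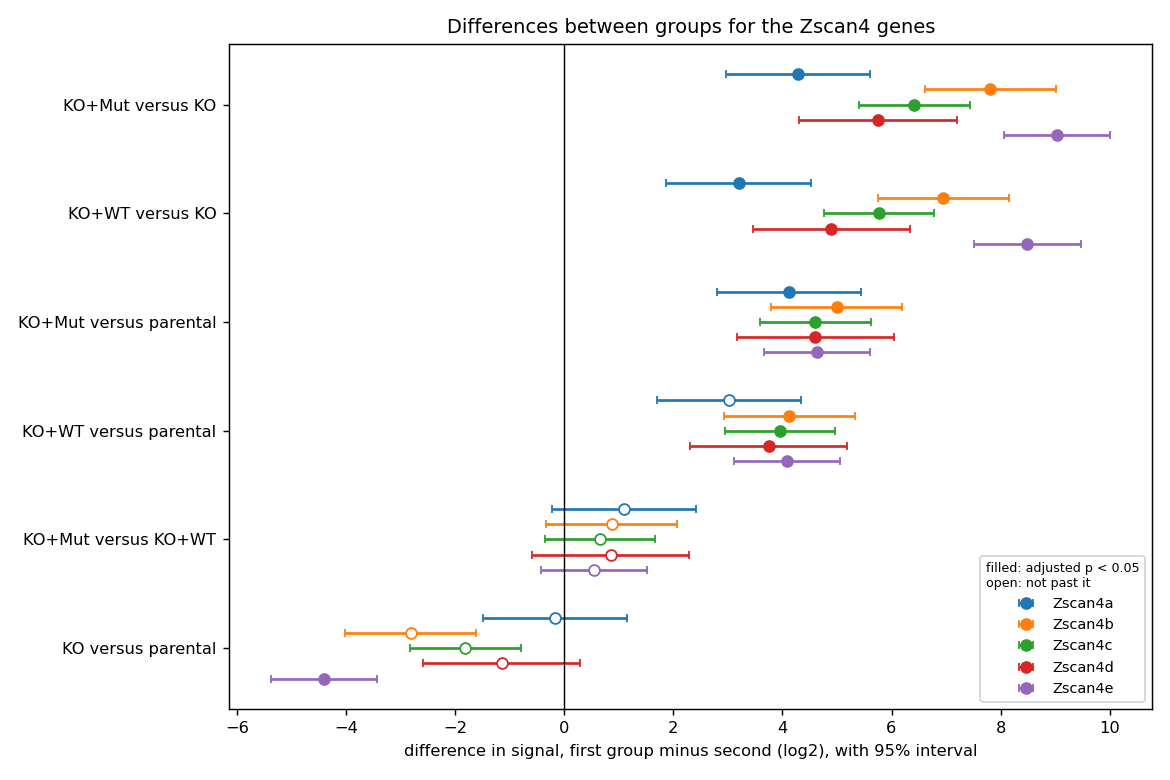
Differences in signal (log2, horizontal axis, first group minus second) with 95% intervals from limma for the 5 Zscan4 genes in 6 comparisons; filled points passed an adjusted p of 0.05 and open points did not. Against KO the genes spread over 3.19 to 8.49 with wild-type add-back, and against parental cells over 3.02 to 4.13.

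The 2 add-backs were compared directly to ask whether loss of SUMO sites changes the response. No difference between them passed the threshold for any Zscan4 gene. Zscan4a was 1.10 higher in KO+Mut than in KO+WT cells (SE 0.61, 95% interval -0.23 to 2.42), Zscan4b 0.86 (SE 0.56, -0.34 to 2.07), Zscan4d 0.85 (SE 0.67, -0.59 to 2.29), Zscan4c 0.65 (SE 0.47, -0.36 to 1.66) and Zscan4e 0.55 (SE 0.45, -0.43 to 1.52), each with a limma adjusted p of 1. The groups overlapped for all 5 genes. None of the 5 had an unadjusted p under 0.05, and 675 of 22180 genes did, while the shares of genes called higher and lower were 0% and 0%. The intervals include 0 and also differences of up to 1.52 (Zscan4e) and 2.42 (Zscan4a), so the arrays do not show that the 2 forms act alike.

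All 15 differences between same-numbered arrays (5 genes, 3 numbers) were positive, with KO+Mut above KO+WT by 0.21 to 1.75. These come from 3 pairs of arrays, on which the 5 genes are not independent, so they are not 15 separate results. In this comparison too the numbers were taken to pair the arrays. The same direction in all 3 pairs was seen for 12% of all genes, each taken singly. Replicate 1 gave the largest difference for each gene, at 1.72 for Zscan4a, 1.45 for Zscan4b, 1.13 for Zscan4c, 1.75 for Zscan4d and 1.07 for Zscan4e. Without KO+WT replicate 1 the group differences were 0.31, 0.17, 0.08, 0.00 and 0.04 in that order of genes. With the replicate number as a block the adjusted p lay between 0.873 (Zscan4c) and 0.917 (Zscan4e).

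**Figure D3:**
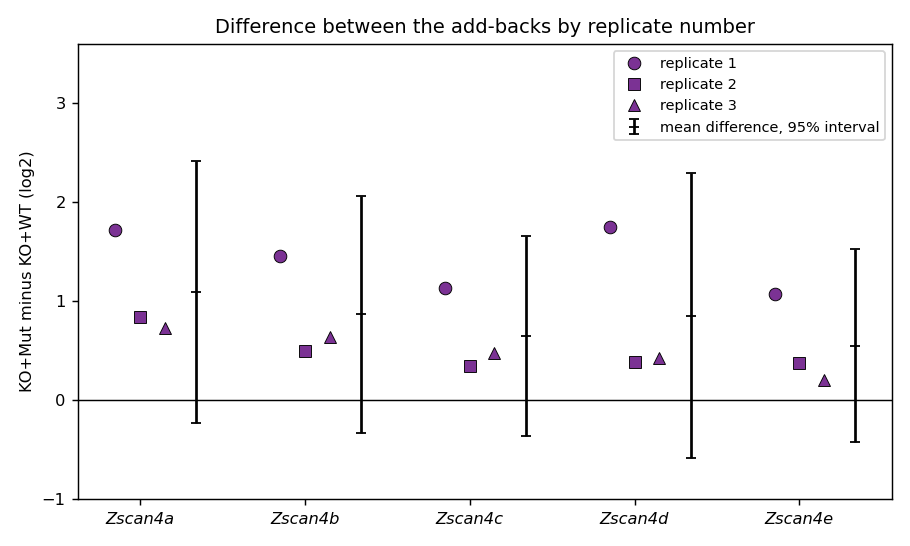
KO+Mut minus KO+WT signal (log2, vertical axis) for arrays of the same replicate number, by gene, with the mean difference and its 95% interval from limma in black. All 15 points lie above 0, replicate 1 is the uppermost for each gene, and all 5 intervals include 0. The points of different genes come from the same 3 pairs of arrays and are not independent.

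The replicates of the add-back groups ranked alike. Replicate 1 was lowest and replicate 3 highest for 5 of 5 Zscan4 genes in KO+Mut and for 5 of 5 in KO+WT cells, an order that 7.75% of all genes showed in both groups. In parental cells too replicate 1 was lowest for 5 of 5, with replicate 2 highest for 5 of 5. The share of all genes with that parental order was not computed. The SD over 3 arrays was 0.51 to 0.99 in KO+Mut, 0.95 to 1.55 in KO+WT, 0.03 to 0.34 in KO and 0.50 to 0.95 in parental cells, against medians over all genes of 0.17, 0.19, 0.17 and 0.16. In KO+Mut, KO+WT and parental cells each Zscan4 gene thus varied more between samples than the median gene. On the same KO+WT arrays Dppa2 was 10.79, 11.34 and 11.11 and Dppa4 10.09, 10.58 and 10.49 for replicates 1, 2 and 3, both lowest on replicate 1 and highest on replicate 2. On the KO+Mut arrays Dppa2 was 11.12, 11.30 and 11.17 and Dppa4 10.55, 10.67 and 10.39. The part of these levels in the Zscan4 values was not tested.

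With add-back the family stood above the level of parental cells, as did the supplied genes. Dppa2 was higher by 1.42 in KO+Mut and 1.31 in KO+WT cells (SE 0.21, limma adjusted p = 0.00529 and 0.0154). The wild-type call of Dppa2 was kept in 2 of 6 fits with an array left out. Dppa4 was higher by 2.08 and 1.93 (SE 0.18, adjusted p = 9.05e-05 and 0.000253). The part of these levels in the Zscan4 values was not tested. Against parental cells Zscan4e was higher by 4.63 in KO+Mut and by 4.08 in KO+WT cells (SE 0.45, limma adjusted p = 0.000241 and 0.000939). Zscan4b was higher by 4.99 and 4.13 (SE 0.56, adjusted p = 0.000585 and 0.00386) and Zscan4c by 4.60 and 3.95 (SE 0.47, adjusted p = 0.000343 and 0.00143), with the mutant given first. The lowest add-back value of each Zscan4 gene lay above its highest parental value, and the share of all genes so separated was not computed.

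Zscan4d was higher than in parental cells by 4.60 in KO+Mut and 3.74 in KO+WT cells (SE 0.67, limma adjusted p = 0.00481 and 0.0264), and Zscan4a by 4.12 and 3.02 (SE 0.61, adjusted p = 0.00529 and 0.0513). The wild-type call of Zscan4d was lost without parental replicate 1, 2 or 3 (adjusted p = 0.106, 0.0612 and 0.0666) and without KO+WT replicate 2 or 3 (0.101 and 0.0821). That of Zscan4a passed without KO+WT replicate 1 (0.00245) and with the replicate block (0.0208). So 5 of 5 genes were called higher with the mutant, against 0.654% of all genes, and 4 of 5 with the wild-type proteins, against 0.32%, or 5 of 5 against 1.07% with the block. Since lipofection and sorting are stated for add-back cells alone, add-back and handling cannot be told apart here. Of the 10 endoderm markers 2 were lower than in parental cells in KO+Mut and 2 in KO+WT (limma), against 0.338% and 0.23% of all genes. With the block 4 were lower in each, against 1.54% and 0.996% of all genes. The part of these markers in the Zscan4 values was not tested.

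Each gene had its group means in the order KO+Mut, KO+WT, parental and KO from high to low. For Zscan4e these were 11.10 ± 0.51, 10.55 ± 0.95, 6.46 ± 0.78 and 2.06 ± 0.30 (log2, SD, n = 3), and for Zscan4c 10.77 ± 0.73, 10.12 ± 1.06, 6.17 ± 0.50 and 4.36 ± 0.34. The step between the 2 add-backs lay within the spread for all 5 genes, and that between parental and KO for Zscan4a and Zscan4d.

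The size of the difference varied among the 5 genes. With wild-type add-back the rise over KO ran from 3.19 for Zscan4a to 8.49 for Zscan4e, a spread of 5.30, and with the mutant from 4.29 to 9.04, a spread of 4.75. Against parental cells the corresponding spreads were 0.88 with the mutant and 1.11 with the wild-type proteins. In KO cells Zscan4a lay at percentiles 61.4 to 61.8 of its arrays, Zscan4c at 52.8 to 61.9 and Zscan4b at 22.6 to 24.7, values of different probes that do not rank the genes' RNA levels. No detection calls were used, so a low level cannot be separated from background, and cross-reading of other transcripts by these probes was not tested.

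Such differences between genes were also compared within arrays. Zscan4e minus Zscan4a signal was 2.77 ± 0.55 in KO+WT and -2.53 ± 0.29 in KO cells, a shift of 5.30 (SD, n = 3, exact two-sided permutation p = 0.1, 0.143 after adjustment over 40 tests). With 3 against 3 arrays 0.1 is the smallest p this design allows, so no such test could pass, and unequal change of the genes was not shown. Between KO+Mut and KO+WT the smallest exact permutation p over 10 pairs of genes was 0.2, 0.258 after adjustment.

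Genes with the most similar profile were ranked by the root mean square difference between a gene's log2 signal over the 12 arrays, centred on its own mean, and the mean centred profile of the 5 Zscan4 genes. Nearest of 22175 other genes was Eif4a3l1, similar in name to a translation initiation factor, at 0.19 (log2), followed by Gm5662 (0.33), Gm2022 (0.37), Gm11546 (0.41), the POZ-domain gene Tdpoz3 (0.42), Gm4340 (0.43), Gm2046 (0.46) and Pramel31 (0.51). The gene after these stood at 0.54, and the median over all genes was 2.81. Among the Zscan4 genes themselves the distance to their mean was 0.24 for Zscan4c, 0.47 for Zscan4d, 0.48 for Zscan4b, 1.06 for Zscan4a and 1.08 for Zscan4e. Eif4a3l1 averaged 10.54 ± 0.83 in KO+Mut, 9.89 ± 1.07 in KO+WT, 4.27 ± 0.17 in KO cells and 6.05 ± 0.67 in parental ones (SD, n = 3). With Zscan4e alone as the model, 5 of these 8 genes were again among the nearest 8.

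**Figure D4:**
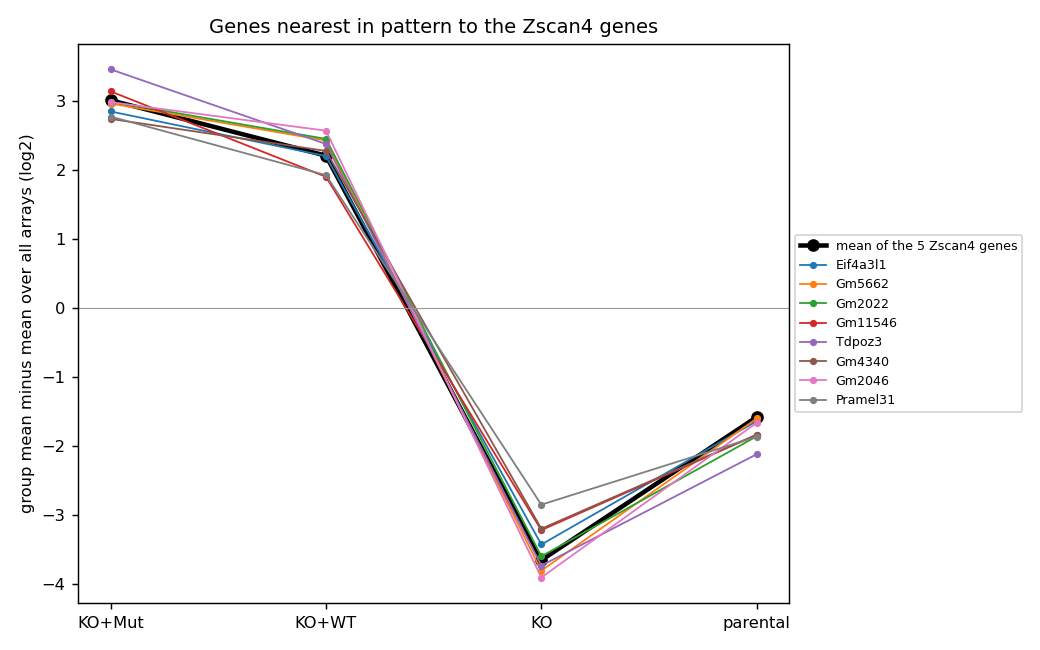
Group means of signal (log2, vertical axis) after subtracting each gene's mean over all arrays, for the mean of the 5 Zscan4 genes (black) and the 8 nearest genes. All 9 lines are high in KO+Mut and KO+WT and lowest in KO, with parental cells between.

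Several transcripts known to accompany Zscan4 in ES cells or 2-cell embryos rose in the same comparisons. Of 18 measured from a list of 20, 12 rose in KO+Mut over KO cells and 6 did not pass, where 1.12% of all genes were called higher, with a median difference of 3.70, against -0.01 over all genes. With wild-type add-back 10 rose and 8 did not pass (median 2.97), where 0.73% of all genes were called higher, and none fell in either comparison, where 0.153% and 0.0992% of all genes were called lower with mutant and wild-type. The list holds several Usp17l and several Tdpoz genes, whose probe sets may read each other, so its counts are not of independent genes. It was also chosen with earlier results of these data known. Usp17le, a deubiquitinase gene, rose by 7.40 with the mutant and 7.02 with the wild-type proteins (SE 0.32, limma adjusted p = 1.69e-07 and 3.26e-07). Tdpoz3 rose by 7.19 and 6.11 (SE 0.41), Gm4340 by 5.94 and 5.47 (SE 0.40) and Usp17ld by 3.54 and 3.19 (SE 0.22), in the same order.

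In KO against parental cells 1 of the 18 fell, where 0.203% of all genes were called lower. This was Usp17le, which fell by 2.99 (SE 0.32, limma adjusted p = 0.00102). Of the 18, 0 rose, where 0.0361% of all genes were called higher. Against parental cells 12 were higher in KO+Mut and 10 in KO+WT, where 0.654% and 0.32% of all genes were higher. In either add-back 0 were lower, where 0.338% and 0.23% of all genes were lower. With the replicate block 12 and 11 were higher, the 11 in KO+WT against 1.07% of all genes. In KO+Mut with the block 695 of 22180 genes were called in either direction, of which 342 were lower. With the block 1 was lower in KO+Mut, against 1.54% of all genes. That was the DNA helicase gene Pif1, which differed by -0.49 (limma adjusted p = 0.0435 with the block, and 0.193 with SE 0.15 without it). Between the add-backs 0 of 18 passed in limma and 2 had an unadjusted p under 0.05, where 0% of all genes passed and 675 of 22180 had such a p. Tdpoz4, of smallest p, differed by 1.12 (SE 0.30, adjusted p = 1).

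Regulators of the Zscan4 state were read beside the family. Of 6 measured genes known to favour it, 3 rose over KO with the mutant, Dppa2, Dppa4 and Nelfa. With the wild-type proteins 2 rose, Dppa2 and Dppa4. These 2 were knocked out and then supplied on plasmids, so their rise was built into the design and says nothing about the list. Apart from them Nelfa with the mutant was the only call, where 1.12% of all genes were called higher. With the wild-type proteins that share was 0.73%. Nelfa, a subunit of negative elongation factor that in mouse ES cells activates 2-cell genes, was 9.51, 10.02 and 10.26 in KO+Mut and 8.32, 8.27 and 8.61 in KO cells. It rose by 1.53 (SE 0.28, limma adjusted p = 0.0177), a call kept in 2 of 6 fits with an array left out, with adjusted p up to 0.0899 without KO+Mut replicate 2. In KO+WT cells Nelfa was 8.88, 9.84 and 10.22 (difference from KO 1.25, SE 0.28, adjusted p = 0.0675), again lowest on replicate 1 and highest on replicate 3. That order in both add-back groups was seen for 7.75% of all genes.

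Of 21 measured genes that restrain this state, such as the histone chaperone subunits Chaf1a and Chaf1b and the silencing factors Trim28 and Setdb1, 0 passed in any of the 6 comparisons in limma without the replicate block. In these comparisons 0% to 1.12% of all genes were called in a given direction, so a count of 0 does not set the list apart. Differences of the 21 genes ran from -0.45 to 0.03 with the mutant and from -0.61 to 0.03 with the wild-type proteins, over KO cells. Smchd1, a chromosomal silencing protein, had the smallest p with the wild-type proteins, with a difference of -0.28 (SE 0.11, adjusted p = 0.34), and was the 1 gene of the list with an unadjusted p under 0.05 there. With the mutant 0 were under it, where 2771 of all 22180 genes were, and 2662 were with the wild-type proteins. With the replicate block 2 of the 21 were lower in each add-back than in parental cells, against 1.54% of all genes with the mutant and 0.996% with the wild-type proteins. These were Chaf1b and the RNA-binding protein gene Lin28a. Chaf1b differed by -0.40 with the mutant and -0.45 with the wild-type proteins (limma adjusted p = 0.0338 and 0.0293 with the block). Lin28a differed by -0.84 with the mutant and -0.99 with the wild-type proteins (adjusted p = 0.0363 and 0.0263 with the block).

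Of 30 other SCAN-domain zinc finger genes measured, 0 passed in any comparison in limma, and their differences from KO ran from -0.61 to 0.28 with the mutant and from -0.46 to 0.29 with the wild-type proteins, with 2 and 3 at an unadjusted p under 0.05. Of all 22180 genes 2771 and 2662 had such a p, and 0% to 1.12% were called in a given direction per comparison. Mzf1 (-0.61, SE 0.20, adjusted p = 0.215) and Zkscan4 (-0.46, SE 0.15, adjusted p = 0.231) had the smallest p with mutant and wild-type. Nor did any of 28 telomere maintenance and meiotic recombination genes pass without the block, with differences from KO of -0.41 to 0.09 with the mutant and -0.54 to 0.11 with the wild-type proteins, and 2 and 1 at an unadjusted p under 0.05. The shares of all genes are those just given, so the absence of calls does not set either list apart. Blm, a DNA helicase, differed by -0.31 with the mutant (SE 0.11, adjusted p = 0.271), and the telomere-binding gene Terf1 by -0.40 with the wild-type proteins (SE 0.18, adjusted p = 0.394). With the replicate block 1 of the 28 was lower in each add-back than in parental cells, against 1.54% of all genes in KO+Mut and 0.996% in KO+WT. This was the meiotic cohesin gene Smc1b, which differed by -0.77 in KO+Mut and -0.94 in KO+WT. Its limma adjusted p was 0.0202 and 0.0146 with the block, and 0.427 and 0.352 without it (SE 0.35 without the block).

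Neighbours of the cluster were read as well. The 5 nearest measured genes on each side, mostly vomeronasal receptor genes (Vmn1r68 to Vmn1r71 on the side of Zscan4a, with Nlrp4b, and Vmn1r72 to Vmn1r75 on the other, with Gm6929), gave 0 calls of 10 in each of the 6 limma comparisons. In these comparisons 0% to 1.12% of all genes were called in a given direction. Apart from Nlrp4b, with a mean of 4.85 over all arrays, these genes averaged 1.20 to 2.09, below the arrays' lower quartiles of 2.36 to 2.47. At such levels a change can be missed, so these counts do not show that the rise ends at the cluster. Differences of the 10 genes from KO ran from -0.36 to 0.25 with the mutant and from -0.30 to 0.44 with the wild-type proteins. An unadjusted p under 0.05 was seen for 0 and 1, against 2771 and 2662 of 22180 genes. Gm6909, the 1 other measured gene that lies between Zscan4a and Zscan4e in the RefSeq order, differed by 0.74 with the mutant and 0.81 with the wild-type proteins (adjusted p = 0.314 and 0.285), each with an unadjusted p under 0.05.

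**Figure D5:**
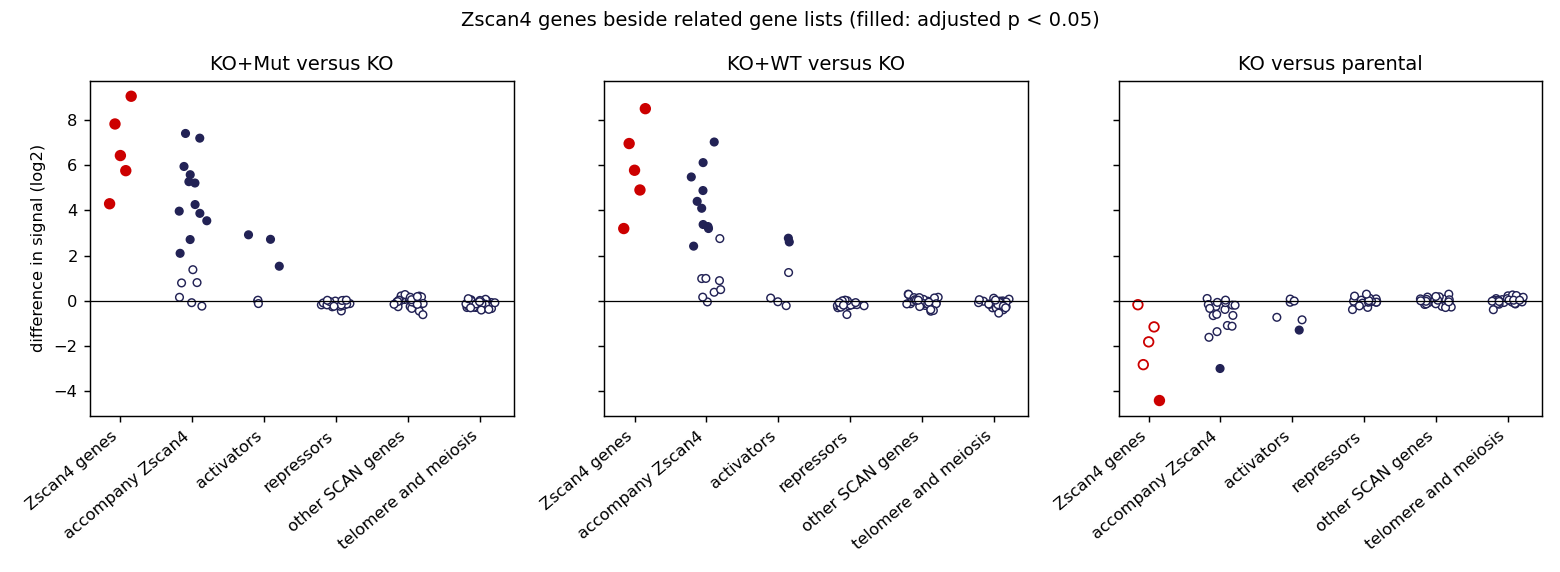
Differences in signal (log2, vertical axis) of the 5 Zscan4 genes (red) and of the genes of 5 lists (dark blue) in 3 comparisons; filled points passed an adjusted p of 0.05 and the sideways scatter has no meaning. Zscan4 genes and the transcripts that accompany them lie between -0.24 and 9.04 in KO+Mut over KO, while the repressors, other SCAN genes and telomere genes lie within -0.61 and 0.28.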

How the data were processed

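RNA from 12 mouse ES cell samples was labelled with the Affymetrix WT Plus kit, per the labels' protocols. Each probe set has 1 deposited log2 signal per array, normalized by the authors with the Transcriptome Analysis Console, per the submitters' processing notes. The range of the values shows the log2 scale. The software version, the normalization method and the genome build were not given in the sources used here. Of 41345 probe sets, 23521 had 1 symbol in GEO's platform annotation, 1814 several and 16010 none. Where a gene had several single-symbol probe sets the one of highest mean was used, giving 22180 genes. Groups and replicate numbers came from the sample titles.

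The test of each difference was limma 3.58.1, run in R 4.3.3 (1 mean per group, all 12 arrays, Benjamini-Hochberg adjustment over the 22180 genes of each of 6 comparisons, threshold 0.05). The fit was tested on simulated data. In KO+WT against KO it recovered 38 of 50 genes changed by 1 (log2) and 50 of 50 at each of 2, 4 and 8, among 22180 genes. It also called 15 unchanged genes. The simulated noise was independent between arrays, so it left out the joint deviation of same-numbered arrays described next. Tables and figures used Python 3.11.15. Sequences are RefSeq's.

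Arrays of the same number deviated together (correlation of deviations from group means over 0.1 for each pair) in KO against parental (0.36, 0.15 and 0.42) and KO+Mut against KO+WT (0.40, 0.21 and 0.47). They also did so in KO+Mut against parental (0.33, 0.13 and 0.36) and KO+WT against parental (0.33, 0.15 and 0.31). The main fit left this pairing out, and the replicate block was run beside it as an alternative. In either add-back against KO the numbers were not taken as pairs. The genes and lists were chosen with earlier results of these data known. Named were the 5 genes, Dppa2 and Dppa4, the 8 nearest profiles, up to 4 passing genes per list and comparison by smallest p or else the gene of smallest p, and the 5 nearest neighbours on each side; Chaf1a, Trim28 and Setdb1 are named as examples of their list, and Chaf1b and Smc1b with the mutant and Pif1 for their blocked calls, after their values were seen. Alternatives were the replicate block, repeated quantile normalization, median centring, a filter below percentile 25 of signal, averaging the probe sets of a gene, testing all probe sets, trend and robust variances, array weights, the 6 arrays compared, and leaving out each array.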

Additional observations from a re-analysis of the deposited data

Results flagged for a closer look

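Outside the 5 genes, 2 further probe sets carried several gene symbols each, all of the Zscan4 family, and were left out of the comparisons because their signal cannot be given to 1 gene. Both were far above the KO level with add-back. The first had 10.05, 10.65 and 11.11 in KO+Mut, 8.78, 10.20 and 10.71 in KO+WT, 2.71, 2.47 and 3.09 in KO and 5.39, 6.67 and 6.25 in parental cells (log2). Its differences from KO were 7.85 in KO+Mut and 7.14 in KO+WT (SE 0.47, limma adjusted p = 7.25e-06 and 1.89e-05 over 41345 probe sets). The second had 10.76, 11.09 and 11.62 in KO+Mut, 9.71, 10.89 and 11.38 in KO+WT, 3.15, 2.31 and 2.78 in KO and 6.20, 7.45 and 7.04 in parental cells. It differed from KO by 8.41 in KO+Mut and 7.91 in KO+WT (SE 0.43, adjusted p = 6.45e-06 and 1.59e-05). In KO against parental cells both were lower, by -3.35 and -4.15 (adjusted p = 0.031 and 0.00441). Between KO+Mut and KO+WT they differed by 0.71 and 0.50 (adjusted p = 1 for both after rounding). No outlying array could be sought in groups of 3.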

How the results depend on the processing

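Of 450 values of single Zscan4 genes under alternatives, 424 kept their direction and side of the threshold, 11 passed newly, 14 no longer passed and 1 turned its sign: Zscan4a in KO against parental cells, at 0.12 without parental replicate 2 (range -0.37 to 0.12 over the fits that leave out an array). In KO against parental cells 1 of 5 genes passed, but 3 with the replicate block, 3 with array weights and 2 when the 6 arrays were fitted alone. The cause was not tested. The wild-type calls of Zscan4a over KO and of Zscan4d over parental cells were also lost when all probe sets were tested (adjusted p = 0.0707 and 0.0564), which adjusts over more tests, and Zscan4d over parental cells in the fit of 6 arrays (0.127). Besides these, the replicate block brought Zscan4a in KO+WT over parental cells past the threshold (0.0208) and changed no other call of a Zscan4 gene. Ranked by likeness to Zscan4e alone, 5 of the 8 nearest genes were shared. Levels near the lower quartile of the arrays limit what can be said of KO cells.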
